A study of Mus musculus with 2 samples.

Results

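The genes described here encode 9 subunits of hematopoietic cytokine receptors: Csf2rb, Csf2rb2, Csf2ra, Csf3r, Il3ra, Il5ra, Il6ra, Il6st and Epor. They were chosen by name, with earlier results of these data known. Every probe set whose platform annotation named 1 of them alone was taken. This gave 15 of 45037 probe sets and 9 of 18193 named genes. The samples were hematopoietic stem cells (HSC, the marrow cells from which all blood lineages arise) of mice aged 3 months, 1 array labelled Sirt6 knockout (the KO-labelled array) and 1 array labelled wild type (the WT array). The sources used here do not give the Sirt6 allele, the sorting gates or any pooling of mice. Each value is a MAS5 signal, a linear intensity in arbitrary units, and each comparison is the log2 ratio of the KO-labelled array over the WT array.

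These receptors carry the signals of IL-3, GM-CSF, IL-5, G-CSF, IL-6 and erythropoietin, and their cytoplasmic parts bind Jak kinases that phosphorylate Stat factors. In the common beta family and the IL-6 family a ligand-specific alpha chain binds the cytokine and a shared chain signals, Csf2rb (the common beta chain) for GM-CSF, IL-3 and IL-5, and Il6st (gp130) for IL-6 and related cytokines. Mice also have Csf2rb2, a close copy of Csf2rb that serves IL-3 only, while Csf3r and Epor pair with themselves.

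With 1 array per genotype there was no replicate, and no test, SD or p-value between genotypes was possible. Differences were therefore described by a fixed size of 1.5-fold, and a floor was set at a signal of 60.5, the median over all probe sets. A signal under the floor was not used as a level, except within the summed signals of marker lists. The 2 arrays had median signals of 60.7 (labelled knockout) and 60.8 (wild type). The targeted gene, Sirt6, read 174 on the KO-labelled array and 124 on the WT array (log2 ratio 0.49), and the sources used here do not say whether its probe set lies in the disrupted part. The genotype thus rests on the label. Probe sets of the same gene spread around their gene's mean log2 ratio with a pooled SD of 0.22. This covers 4632 genes with more than 1 probe set above the floor on both arrays. It is called the technical spread here. Since it compares probe sets of 1 gene on the same 2 arrays, an error that those probe sets share does not enter it. It also holds no variation between mice, and a difference between 2 probe sets spreads more widely than this SD.

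Of the 9 subunit genes 8 passed the floor on at least 1 array (called measured), and Il5ra did not. Taking the brightest probe set of each gene, 3 of the 8 were at least 1.5-fold higher on the KO-labelled array (37.5%), against 1.71% of 11547 measured genes. They were Csf2rb, Csf2rb2 and Il3ra. Csf2rb and Csf2rb2 are near-identical copies and cannot be counted as independent. Il3ra was under 1.5-fold (log2 0.51) when 1 floor was added to each signal as a pseudocount. Only Il6ra was at least 1.5-fold lower on its brightest probe set (12.5%), against 2.63% of measured genes. Since the subunits were chosen with earlier results known, these shares are a description and not a test of the set. Csf2ra, Il6st, Csf3r and Epor lay between. No subunit reached 2-fold, a size passed in either direction by 0.97% of measured genes. The median log2 ratio of the 8 subunits was -0.05 and that of all measured genes 0.0023, so both medians lay near 0.

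**Figure D1:**
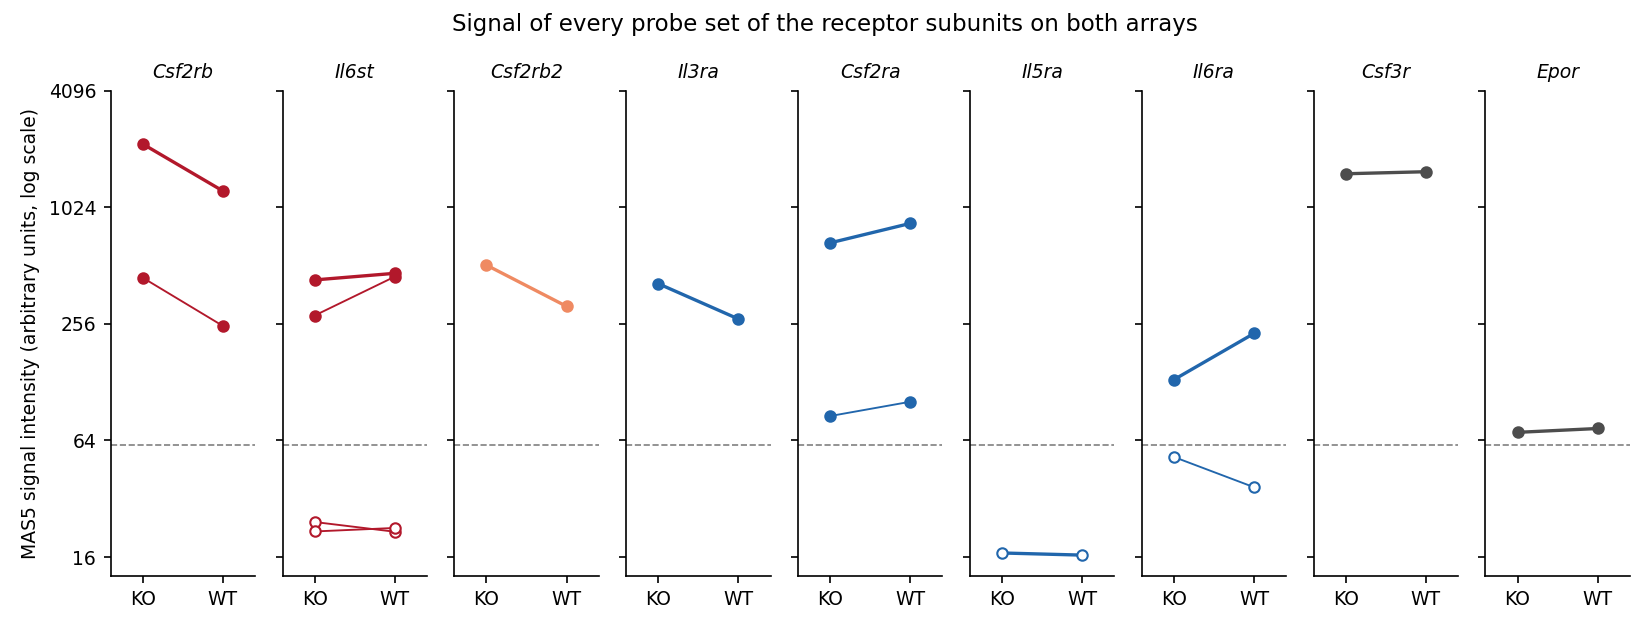
MAS5 signal (log scale) of all 15 probe sets of the receptor subunits on the KO-labelled array (KO, left) and the WT array (WT, right), with 1 line per probe set, a thicker line for the brightest of each gene, a dashed line at the floor of 60.5 and open circles for probe sets under it on both arrays. Colours mark shared signalling chains (red), the IL-3-specific beta chain (orange), other ligand-specific chains (blue) and homodimeric receptors (grey). Lines of Csf2rb, Csf2rb2 and Il3ra lie higher on the KO side, and the measured line of Il6ra lies lower there.

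Regulatory sequence is shown for the genes with the highest and the lowest log2 ratio among the 8 subunits with a RefSeq promoter window (GRCm38.p6, all but Csf2rb). These are Csf2rb2 and Il6ra. Each run is the 250 bases before the transcription start, written 5′ to 3′ on the gene's strand, and capitals mark matches to the motifs described next. The Csf2rb2 run is chr15:78305722-78305971 and the Il6ra run is chr3:89913197-89913446, both on the minus strand.
Csf2rb2: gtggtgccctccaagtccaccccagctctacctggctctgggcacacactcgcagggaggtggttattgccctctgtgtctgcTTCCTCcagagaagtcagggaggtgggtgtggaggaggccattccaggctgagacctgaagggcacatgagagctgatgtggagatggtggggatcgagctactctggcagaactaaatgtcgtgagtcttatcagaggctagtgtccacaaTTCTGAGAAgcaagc
Il6ra: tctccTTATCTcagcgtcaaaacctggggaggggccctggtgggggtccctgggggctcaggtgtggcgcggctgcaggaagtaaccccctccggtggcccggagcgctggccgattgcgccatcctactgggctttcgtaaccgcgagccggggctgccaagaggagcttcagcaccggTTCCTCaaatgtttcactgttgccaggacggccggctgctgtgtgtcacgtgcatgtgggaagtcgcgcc

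Motifs were searched on both strands of the whole window, which runs on for 50 bases past the start. They were a Stat dimer motif (TTCNNNGAA), the GAGGAA core of Ets factors of the PU.1 kind, a GATA motif (AGATAA) and a C/EBP motif (TTGCNNAA), and none of the matches in the subunits' windows overlapped another motif's match. Positions count from the start site, with -1 as the base before it. Csf2rb2 held the only Stat match of the 8 windows, TTCTGAGAA at -15, a motif found in 8.30% of all 32851 windows. Its Ets matches lay at -167 and, past the shown run, at 30. Il6ra held an Ets match at -70 and a GATA match at -245. The Ets core was present in 5 of the 8 subunit windows and in 28.3% of all windows, and the GATA motif in 3 of 8 (Il6ra, Il5ra and Epor) and in 11.2% of all windows. Il3ra alone held the C/EBP motif (TTGCTCAA at -134), which 10.8% of all windows had, and Il6st held none of the 4 motifs. A match describes letters and does not show binding.

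Among the shared signalling chains, Csf2rb was higher on the KO-labelled array and Il6st was not. Csf2rb (chromosome 15, 78325800 to 78351001, GRCm38.p6) read 2169 on the KO-labelled array and 1241 on the WT array with probe set 1455660_at. This is a ratio of 1.75 (log2 0.81). Its other probe set, 1421326_at, read 443 on the KO-labelled array and 249.6 on the WT array (log2 0.83). Both probe sets thus gave the same direction and sizes closer together than the technical spread of 0.22. Of 1340 measured genes with a mean log2 signal of 10 to 11, as bright as the first of these probe sets, 0.672% were at least 1.5-fold higher.

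Il6st, gp130 (chromosome 13, 112464070 to 112506860), had 4 probe sets, 2 of them above the floor. Probe set 1452843_at read 431 on the KO-labelled array and 466.5 on the WT array (log2 -0.11), whereas 1437303_at read 282 on the KO-labelled array and 448 on the WT array (log2 -0.67, or 1.59-fold lower). These probe sets differed by more than the technical spread, and the larger value is past 1.5-fold while the brighter probe set is not. With a pseudocount of 1 floor the larger one was also under that size (log2 -0.57). The remaining 2 probe sets, 1421239_at and 1460295_s_at, read 24.3 and 21.7 on the KO-labelled array and 21.6 and 22.6 on the WT array, all under the floor. The median log2 ratio of the shared chains was 0.35, a midpoint between genes that stood on opposite sides of 0.

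The IL-3 receptor chains were higher together. Csf2rb2, the IL-3-specific beta chain (chromosome 15, 78282507 to 78305721), read 514 on the KO-labelled array and 315 on the WT array (ratio 1.63, log2 0.71). Il3ra, the alpha chain that binds IL-3 (chromosome 14, 14345912 to 14355493), read 413 on the KO-labelled array and 271 on the WT array. Its ratio of 1.52 (log2 0.61) is just past 1.5-fold, and with a pseudocount of 1 floor it was under that size (log2 0.51). Among 2501 measured genes of similar brightness (mean log2 signal 8 to 9), 1.48% were at least 1.5-fold higher. Each of these genes had 1 probe set of its own.

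Csf2rb and Csf2rb2 lie 20078 bases apart and are near-identical copies, so their probes may detect each other's transcripts and the ratios of the pair cannot be treated as independent. Probe set 1450200_s_at, annotated to both genes and therefore outside the 15 counted here, read 115 on the KO-labelled array and 66.9 on the WT array (log2 0.78). All 4 probe sets annotated to this pair were higher on the KO-labelled array, with log2 ratios from 0.71 to 0.83.

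The alpha chains for GM-CSF and IL-6 gave ratios below 0. Csf2ra, which binds GM-CSF and signals through Csf2rb (chromosome 19, 61217191 to 61228461), read 669.9 on the KO-labelled array and 844 on the WT array (log2 -0.33). Its dimmer probe set, 1420704_at, read 85.6 on the KO-labelled array and 101 on the WT array (log2 -0.25). Both probe sets pointed the same way at sizes under 1.5-fold. Il6ra, which binds IL-6 and pairs with Il6st (chromosome 3, 89869324 to 89913196), read 132 on the KO-labelled array and 228 on the WT array with 1452416_at (1.73-fold lower, log2 -0.79). Of 2122 measured genes of mean log2 signal 7 to 8, 4.01% were at least 1.5-fold lower. Its other probe set, 1422270_a_at, was under the floor on both arrays and pointed the other way, with 52.6 on the KO-labelled array and 36.7 on the WT array. The lower signal of Il6ra therefore rests on 1 probe set.

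Il5ra, the alpha chain for IL-5 found on eosinophils and their precursors (chromosome 6, 106710375 to 106749037), read 16.8 on the KO-labelled array and 16.4 on the WT array. Both signals were under the floor, and no ratio is given. Over the 4 measured ligand-specific chains (Csf2rb2, Il3ra, Csf2ra and Il6ra) the median log2 ratio was 0.14, with a range from -0.79 to 0.71. With Csf2rb2 counted as a signalling chain instead, the median was -0.33 for the remaining ligand-specific chains and 0.71 for the signalling chains.

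**Figure D2:**
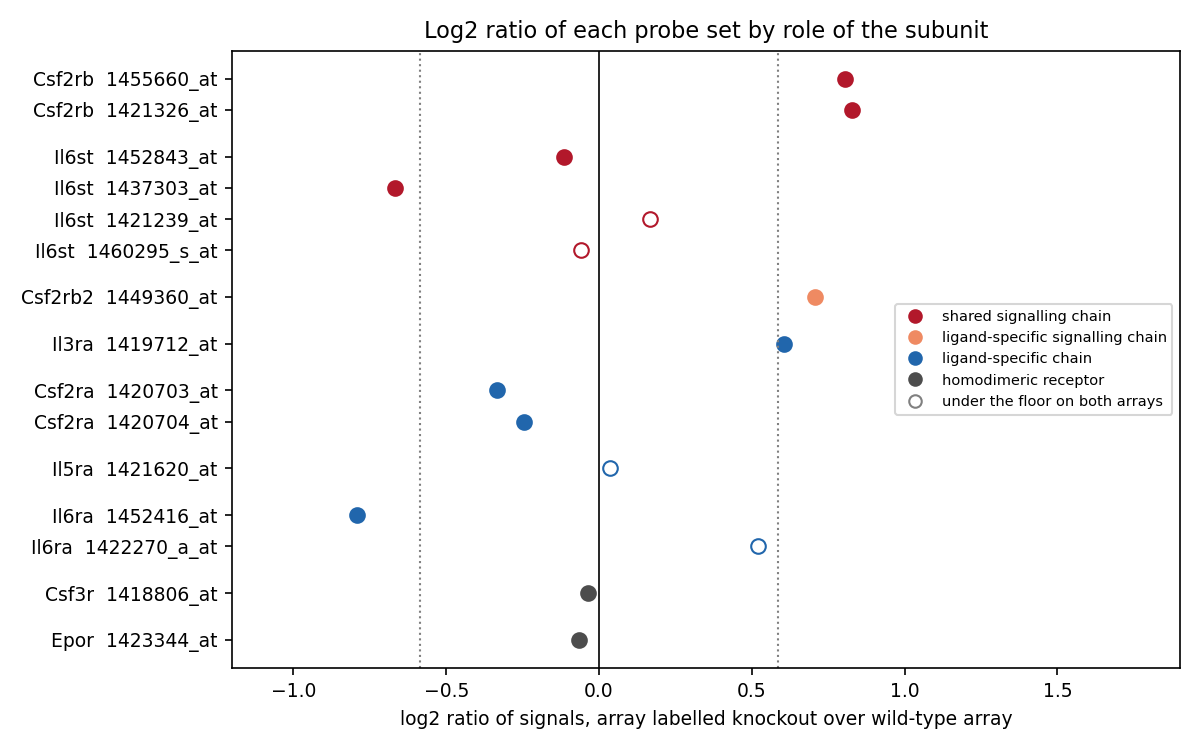
Log2 ratio of signals, KO-labelled over WT array, for each of the 15 probe sets in order of subunit role. Dotted lines mark 1.5-fold, open circles are probe sets under the floor on both arrays, whose ratios are drawn without the floor. Both Csf2rb probe sets, Csf2rb2 and Il3ra lie right of the upper line, and 1 probe set each of Il6ra and Il6st lies left of the lower line.

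The receptors that pair with themselves were close to 0. Csf3r, the G-CSF receptor of the granulocyte lineage (chromosome 4, 126023441 to 126044975), read 1523 on the KO-labelled array and 1560.3 on the WT array (log2 -0.04). Epor, the erythropoietin receptor of erythroid progenitors (chromosome 9, 21958897 to 21963576), read 70.5 on the KO-labelled array and 73.8 on the WT array (log2 -0.07). Epor lay near the floor, where a MAS5 signal is least precise, and Csf3r lay well above it. The median log2 ratio of both genes was -0.05.

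Chains of the same receptor did not share 1 ratio. In the GM-CSF receptor the log2 ratio of Csf2rb exceeded that of Csf2ra by 1.14. In the IL-3 receptor the beta chains exceeded Il3ra by 0.20 (Csf2rb) and 0.10 (Csf2rb2), differences under the technical spread. In the IL-6 receptor Il6st exceeded Il6ra by 0.68 on the brightest probe sets, while the other measured Il6st probe set (log2 -0.67) was close to Il6ra. The classes were small and overlapped: the shared chains ran from -0.11 to 0.81 and the ligand-specific chains from -0.79 to 0.71.

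**Figure D3:**
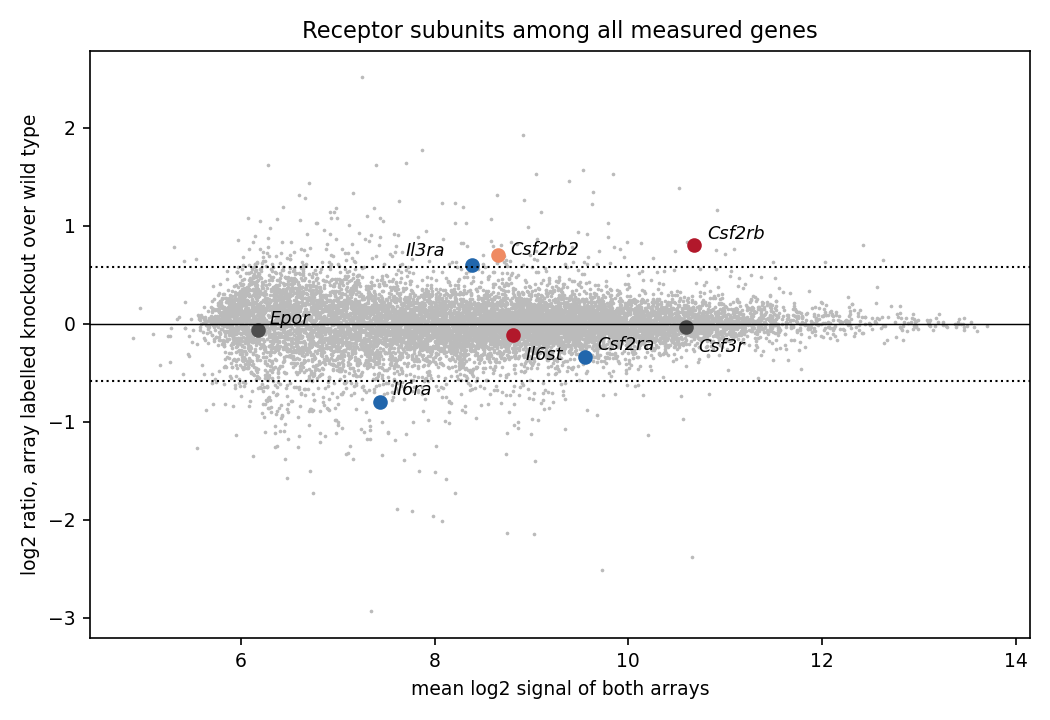
Log2 ratio (KO-labelled over WT array) against mean log2 signal of both arrays for 11547 measured genes (grey points, brightest probe set each), with the 8 measured receptor subunits in the colours of their roles and dotted lines at 1.5-fold. Csf2rb stands above nearly all genes of its brightness, Csf2rb2 and Il3ra lie at the upper edge, Il6ra lies at the lower edge and the other 4 lie among the bulk of genes.

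Most genes of the cytokines themselves did not pass the floor. Of 12 listed ligands 10 were named on the array, and Il3, Csf2, Il5, Csf3, Il6 and Il11 did not pass the floor on either array. The 4 measured ones had a median log2 ratio of -0.03 and 0 had a ratio or bound of 1.5-fold, a size reached by 4.35% of all measured genes. Where 1 array was under the floor, the lower bound was counted in these lists, so such a gene can be past 1.5-fold without being counted. Clcf1, a ligand of the IL-6 family, had a log2 ratio of -0.31 on its brightest probe set, though its 3 measured probe sets ran from -0.31 to 0.63. Oncostatin M (Osm), which signals through Il6st, had 0.26, and cardiotrophin (Ctf1) -0.24. Epo and Cntf were not analysed here.

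Among 12 measured genes of other cytokine and growth factor receptors, 0 were counted as at least 1.5-fold higher and 2 as lower on their brightest probe sets. Among all measured genes 1.71% were higher and 2.63% lower by that size. The median log2 ratio of these receptors was 0.03. Ghr, the growth hormone receptor, read 89.5 on the KO-labelled array and 177 on the WT array (log2 -0.98). Il21r, the IL-21 receptor, read 92.2 on the KO-labelled array and 157 on the WT array (log2 -0.76). Il7r, the IL-7 receptor alpha chain of lymphoid cells, had a log2 ratio of 0.53 and Il27ra, which pairs with Il6st, one of -0.48. Lifr, another partner of Il6st, was at least 1.37-fold higher, a bound that does not show whether it reached 1.5-fold, since it was under the floor in wild type. Csf1r, chosen after its values were seen, had 0.45 on its brightest probe set and up to 0.76 on the others. Il27ra and Lifr, the measured partners of Il6st named here, thus did not share a direction, and Lifr gave a bound only. Osmr, Il31ra, Lepr and Cntfr were under the floor on both arrays.

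Of 10 measured Jak and Stat genes 0 were counted past 1.5-fold, a count not distinct from the 4.35% of all measured genes in a list this short, and the median log2 ratio was 0.11 against 0.0023 for all measured genes. Stat2, an interferon signal transducer, was at least 1.43-fold higher, a bound that leaves unknown whether it reached 1.5-fold. Jak1 had a log2 ratio of 0.24 (its 3 probe sets ran from -0.23 to 0.24) and Stat6, the IL-4 transducer, 0.18. The chief Stat factors of the receptors described here stood near 0, with Stat5a at 0.17 (-0.07 on its other probe set), Stat5b at 0.16 and Stat3 at 0.06 (up to 0.41 on its other probe sets), all chosen after their values were seen. Of 9 measured adaptors and associated kinases 0 were counted past 1.5-fold on their brightest probe sets, likewise near the share of all genes. Their median was 0.23 and 6 of the 9 ratios were positive, against 50.4% of the ratios of all measured genes. The scaffold Gab2 (0.44), the kinase Fes (0.38) and the exchange factor Vav1 (0.34) led them.

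Socs2, a Stat5-induced inhibitor of cytokine signalling, belongs to both the feedback inhibitors and the Stat3 and Stat5 target genes and was counted as lower in each list. It read 105 on the KO-labelled array and 226 on the WT array (2.15-fold lower, log2 -1.10), and its other probe set gave -1.15. Of 17 measured feedback inhibitors 1 was counted as lower, 0 as higher and the median log2 ratio was -0.02. Cish, also induced by Stat5, had a log2 ratio of -0.35, Pias2 one of -0.32 and Socs5 one of -0.30, while other probe sets of Pias2 and Socs5 reached 0.19 and 0.02. Of 14 measured target genes 1 was counted as lower, 0 as higher and the median was 0.03. Among all measured genes 2.63% were lower and 1.71% higher by that size. Counts of 0 or 1 in lists this short are not distinct from those shares, and Socs2 alone makes the count of 1 in both. Id1, an inhibitor of helix-loop-helix factors, was at least 1.49-fold higher, so it may also be past 1.5-fold, and cyclin D1 (Ccnd1) had a log2 ratio of -0.46 and Bcl6 one of -0.37.

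**Figure D4:**
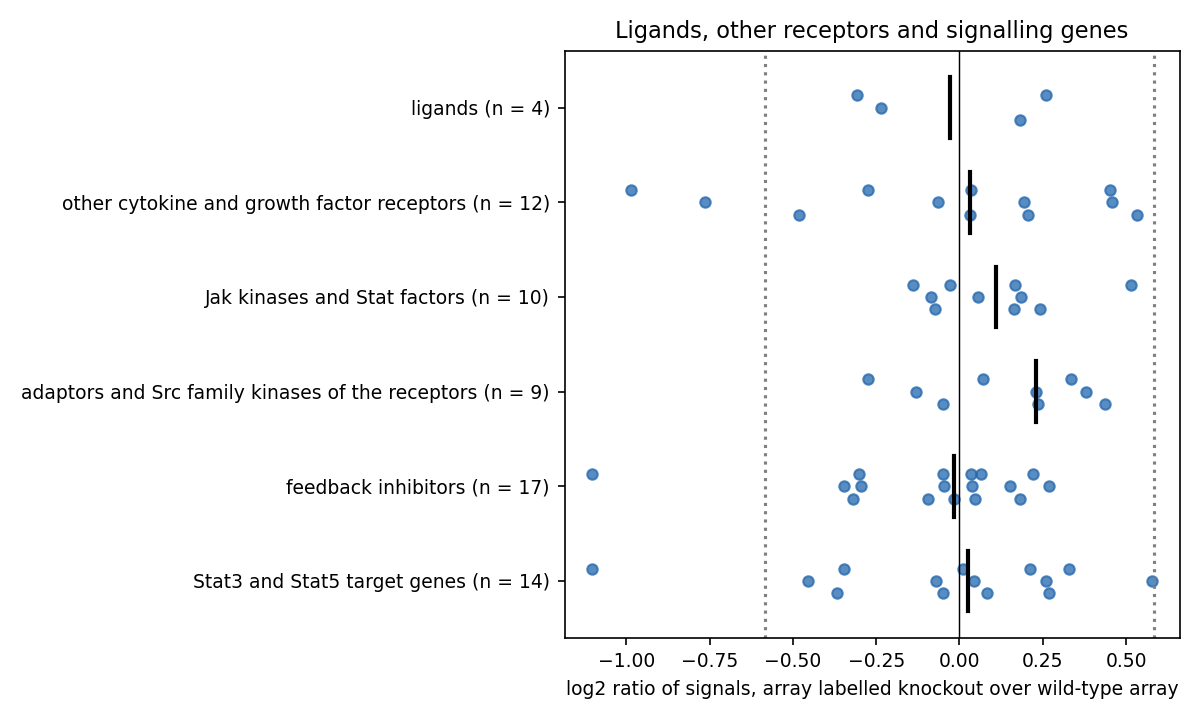
Log2 ratio (KO-labelled over WT array) of each measured gene of 6 lists of ligands, other receptors and signalling genes, with the list median as a black bar and dotted lines at 1.5-fold. Signals under the floor were raised to it, so some points are lower bounds of the difference. Socs2, Ghr and Il21r lie left of the lower line and no gene lies right of the upper line.

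Blood cell type markers also differed between these arrays, and their part in the receptor ratios was not tested. In RNA from a sorted population a smaller number of cells of 1 type and less RNA per cell cannot be told apart. For comparison with the marker counts given below, 1.71% of the 11547 measured genes passed 1.5-fold upward and 2.63% downward. The marker lists are short and were chosen with earlier results known, so their counts are a description and not a test. Granulocyte markers, of the lineage in which Csf3r and Csf2rb are abundant, were at least 1.5-fold higher in 9 of 11 measured genes and lower in 0, with a median log2 ratio of 0.76. Mmp8 was under the floor on both arrays, but summed signals here and below cover every named gene of a list. The summed signal of the granulocyte markers was 36305 on the KO-labelled array and 22746 on the WT array. Lcn2 (1.26), Ms4a3 (1.17), Ngp (0.84) and Ctsg (0.80) led them. On the same arrays Csf2rb had a log2 ratio of 0.81 and Csf3r one of -0.04.

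Basophil and mast cell markers, of lineages that respond to IL-3, were higher in 3 of 7 and lower in 1, with a median of 0.51 and a summed signal of 2487 on the KO-labelled array and 1580.3 on the WT array. Fcer1a (1.18), Mcpt8 (1.14) and Hdc (0.71) were the higher ones and Cma1 (-0.89) the lower one, and Tpsb2 was under the floor on both. The eosinophil genes Siglecf (1.14) and Prg2 (0.81) were higher, and Epx and Ccr3 were under the floor on both arrays, as Il5ra was. The summed signal of these genes, Epx and Ccr3 included, was 480.4 on the KO-labelled array and 251 on the WT array. Monocyte and macrophage markers had a median of 0.33, with 1 of 10 higher and 0 lower and a summed signal of 3882 on the KO-labelled array and 2484 on the WT array. F13a1 (1.57), Itgam (0.46), Irf8 (0.46) and Csf1r (0.45, with its 3 probe sets from 0.45 to 0.76) led them.

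Genes that mark HSC were lower in 8 of 14 and higher in 0, with a median of -0.63 and a summed signal of 12483 on the KO-labelled array and 15089 on the WT array. All 14 passed the floor, so the labelled cell type had its markers on both sides of the comparison. Fgd5 (-1.38), Mllt3 (-1.17), Hlf (-1.13) and Procr (-0.87) led them. Erythroid markers, of the lineage that depends on Epor, went both ways: 2 of 9 higher, 2 lower and a median of -0.17, with summed signals of 6220.4 on the KO-labelled array and 6494 on the WT array. Car1 (-1.96), Aqp1 (-0.98), Tfrc (0.71) and Sptb (0.71, with its other probe set at 0.01) led them, and Alas2 and Slc4a1 did not pass the floor.

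The other marker lists held few measured genes. Of 4 megakaryocyte genes 1 was higher (Itga2b, 0.88) and 2 lower (Vwf, -0.87, and Pf4, -0.76), with Gp9 at 0.13. Of 7 B cell genes 3 were higher (Vpreb1, 1.78, Igll1, 1.62, and Blnk, 0.87) and 1 lower (Ighm, -2.38 on its brightest probe set, with its 8 measured probe sets from -2.38 to -0.04). Of the T and NK cell genes only Gzmb (0.85) and Nkg7 (0.20) were measured, and Cd3e, Cd3d, Cd3g, Cd4 and Ncr1 were under the floor. Of 4 dendritic cell genes 3 were lower (H2-Eb1, -1.12, H2-Aa, -1.06, and Cd74, -0.81), and Itgax was at least 1.24-fold higher. Of 3 endothelial and stromal genes all were lower: Cxcl12 at least 7.63-fold (its other probe set, also under the floor on the KO-labelled array, gave a bound of -1.93 on the log2 scale), Emcn (-1.50) and Sparc (-0.86), whose 3 probe sets ran from -1.26 to 0.25.

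**Figure D5:**
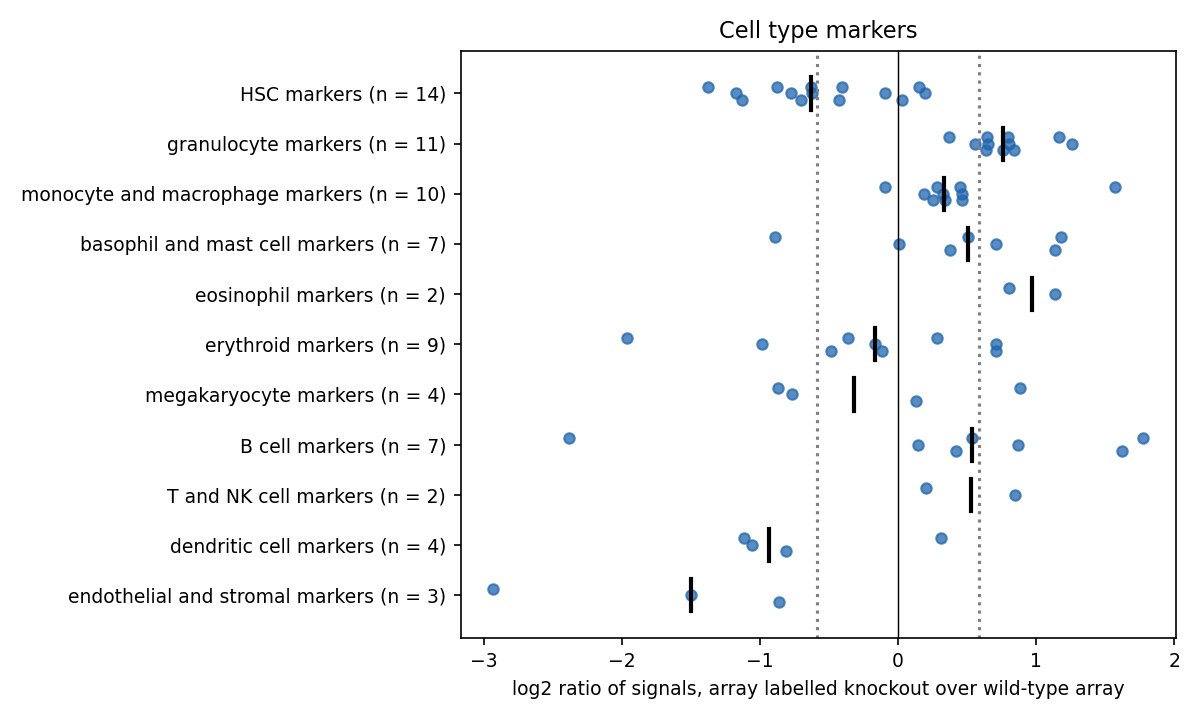
Log2 ratio (KO-labelled over WT array) of each measured gene of 11 cell type marker lists, with the list median as a black bar and dotted lines at 1.5-fold. Signals under the floor were raised to it. All 11 granulocyte genes lie right of 0, and 11 of 14 HSC genes lie left of it.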

How the data were processed

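Total RNA of HSC was measured on 2 Affymetrix arrays, 1 per genotype. The authors deposited a linear signal intensity for each probe set on each array, made with MAS5 per the submitters' processing notes. The sources used here give no version, scaling target or detection calls. MAS5 summarises perfect-match against mismatch probes on each array alone, and its values for dim probe sets vary most, hence the floor below.

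Names came from the platform annotation, in which 34945 probe sets named 1 gene, 932 several and 9160 none. All 9 subunits matched a RefSeq record, and 0 further probe sets matched by synonym only. The floor was the median of the probe sets' mean log2 signals (5.92). A gene was measured when above it on at least 1 array, values under it were raised to it, and such ratios are written "at least". The brightest probe set represented a gene. No test was possible, and list medians were set beside all measured genes. The number of arrays limits the precision.

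The subunits and the 17 lists were chosen with earlier results of these data known. Named were all subunits, from each pathway list the genes past 1.5-fold and the next 3 by size, and from each marker list the 4 largest.

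Alternatives were quantile normalization, median centring, loess (span 0.3, statsmodels 0.14.6), a pseudocount, floors at percentiles 25 and 75 or none, the median over probe sets, leaving out _x_at and _s_at probe sets, 2-fold, and the class of Csf2rb2. The procedure was also run on simulated data with the same noise at every signal, which does not measure the precision of the ratios given here. Python 3.11.15, numpy 2.4.6, pandas 2.3.3 and matplotlib 3.10.9 were used.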

Additional observations from a re-analysis of the deposited data

How the results depend on the processing

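The 3 higher subunits (Csf2rb, Csf2rb2 and Il3ra) were past 1.5-fold under every alternative at that size except the pseudocount, where Il3ra was under it (log2 0.51) and 2 were left. Il6ra stayed at least 1.5-fold lower wherever it was measured, 2-fold aside (log2 -0.79 to -0.59). With the floor at percentile 75 it was not measured, which left 0 lower subunits, and at 2-fold there were 0 higher and 0 lower. The median of the ligand-specific chains was 0.61 with the floor at percentile 75, and -0.33 with Csf2rb2 counted among the signalling chains, whose median was then 0.71. Il6st had -0.39 by the median over its probe sets. The number of genes at least 1.5-fold different (502) was 923 with the floor at percentile 25, 1679 with none, 176 at percentile 75, 274 with the pseudocount and 112 at 2-fold. Apart from that value of Il6st, each measured subunit moved by less than the technical spread of 0.22 under every alternative run. No paired analysis was possible because each genotype had 1 array. Signals near the floor, as for Epor, are the least precise.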
